A study of Mus musculus with 20 samples.

Results

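Differentiated cells were compared with stem cells of the colon in GF mice at 15 weeks of age, over every region of 1 deposited methylation table. The comparison was chosen by the sample labels alone and uses 8 of the 20 samples of the series, 4 GF differentiated samples against 4 GF stem samples. GF is read here as germ-free, that is, without a microbiota, and SPF as specific-pathogen-free. All mice were C57BL/6J and carried the Lgr5EGFP-IRES-CreERT2 allele, an insertion at the Lgr5 gene that makes Lgr5-expressing cells green and lets Cre act in them after tamoxifen. The remaining 12 samples, 2 in each group, are GF differentiated and stem cells at 3 weeks and SPF differentiated and stem cells at 15 and at 3 weeks. Samples 1 and 3 of each GF 15-week group are male and samples 2 and 4 female. Samples 1 and 2 have identifiers that end in Co and samples 3 and 4 identifiers that begin with GFp, a difference in naming that no source used here explains. Differentiated and stem samples 3 share 1 identifier apart from the cell letter, as do samples 4, without a statement that they are the same animals. Nor do the sources say how the cells were separated, or whether the samples of 1 sex come from separate animals, so p-values measure only the spread between these samples, which may be technical.

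DNA methylation in mammals sits mainly on cytosines of CG pairs (CpGs). DNMT1 copies it to the new strand when a cell divides, DNMT3A and DNMT3B add it, and TET enzymes oxidise it. In the colon, Lgr5-expressing stem cells at the base of the crypt divide and give rise to absorptive colonocytes and to goblet, enteroendocrine and tuft cells, which move up the crypt and are shed. Methylation is often lower at enhancers and promoters in use, and levels at such sites can differ between a stem cell and its progeny.

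The table lists 1195 regions on the mouse mm10 build, each with 10 to 49 CpGs, and gives for each sample a methylation level, the share of methylated cytosines from 0 to 1. Coordinates are printed as deposited. No read counts come with the levels, so the depth behind each value is unknown and no interval for a single value is given. The regions are not a sample of the genome. The authors' deposited table gives a difference for each region, from -0.555 to -0.10. Across the 1195 regions this difference had a Pearson's r of 0.888 with the SPF minus GF difference in stem cells at 15 weeks. With the SPF minus GF difference in differentiated cells at 15 weeks its r was 0.676. The list is therefore read as one of regions that were high in GF stem cells and low in SPF stem cells. A choice by high levels in the GF 15-week stem samples can favour lower calls in GF differentiated cells and not higher ones. Its part in the calls was not tested. Over all regions GF 15-week stem and differentiated cells averaged 0.596 and 0.567, and GF 3-week stem and differentiated cells 0.607 and 0.608. SPF stem and differentiated cells averaged 0.354 and 0.345 at 15 weeks and 0.572 and 0.578 at 3 weeks. Marker genes of the cell types could not be checked by expression, since the series holds methylation values only.

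The region with the lowest adjusted p lies in a group of 5 listed regions upstream of 2 let-7 microRNA genes, and another called region lies near Mir148a. The mature microRNAs of these genes are shown because they are the closest annotated products of known function, with the seed (bases 2 to 8, which pair with target mRNAs) in capitals. The sequences are from RefSeq (GRCm38.p6).
mmu-let-7c-5p: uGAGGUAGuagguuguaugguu
mmu-let-7b-5p: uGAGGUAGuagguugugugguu
mmu-miR-148a-3p: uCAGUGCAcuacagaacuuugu
The let-7 pair share the seed GAGGUAG. In many animals let-7 microRNAs accumulate as cells differentiate. Of the 1195 regions 26 overlap a RefSeq promoter window, which runs from 250 bases before to 50 bases after a gene's start, and of these 1 was called lower and 0 higher, beside 83 and 14 of all regions (6.95% and 1.17%). That window, of A630001O12Rik (chr8:126848770-126849069 on the plus strand), is shown 5′ to 3′ with its 8 CpGs in capitals, 5 of which lie in the 156 bases shared with the called region.
A630001O12Rik: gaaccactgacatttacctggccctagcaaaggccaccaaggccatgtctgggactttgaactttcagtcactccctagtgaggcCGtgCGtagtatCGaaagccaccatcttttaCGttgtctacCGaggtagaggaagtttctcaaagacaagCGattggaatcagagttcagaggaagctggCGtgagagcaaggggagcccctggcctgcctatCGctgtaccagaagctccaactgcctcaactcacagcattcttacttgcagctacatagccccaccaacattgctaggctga

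A region was called when the limma adjusted p of the difference, differentiated minus stem, was under 0.05 with Benjamini-Hochberg adjustment over the 1195 regions. Differentiated cells had 83 regions called lower (6.95%) and 14 called higher (1.17%). At an unadjusted p under 0.05 limma gave 238 lower (19.9%) and 66 higher (5.52%). The called lower regions differed by -0.312 to -0.109, 21 of them by 0.2 or more and 3 by 0.3 or more. The called higher regions differed by 0.102 to 0.209. Over all regions, a list whose choice can favour lower values, the median difference was -0.0268 and the mean -0.0296. The mean was -0.0144 over regions with at least 20 CpGs and -0.0171 in the Co and -0.0420 in the GFp samples alone (exact two-sided permutation p = 0.257 with 4 against 4 samples, and 0.333 in both styles, the smallest that 2 against 2 allows). In 73 of the 83 lower regions and 11 of the 14 higher ones the 4 differentiated samples did not overlap the 4 stem samples. Over all regions, the called ones included, this held for 125 in the lower direction (10.5%) and 23 in the higher direction (1.92%). The calls rest on these same values, so the lack of overlap is no separate support for them. Just inside the threshold were Hsd17b11 at -0.147 and Hk1 at -0.147, and just outside it were Ckap4 at -0.163 and Slc37a1 at -0.132.

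**Figure D1:**
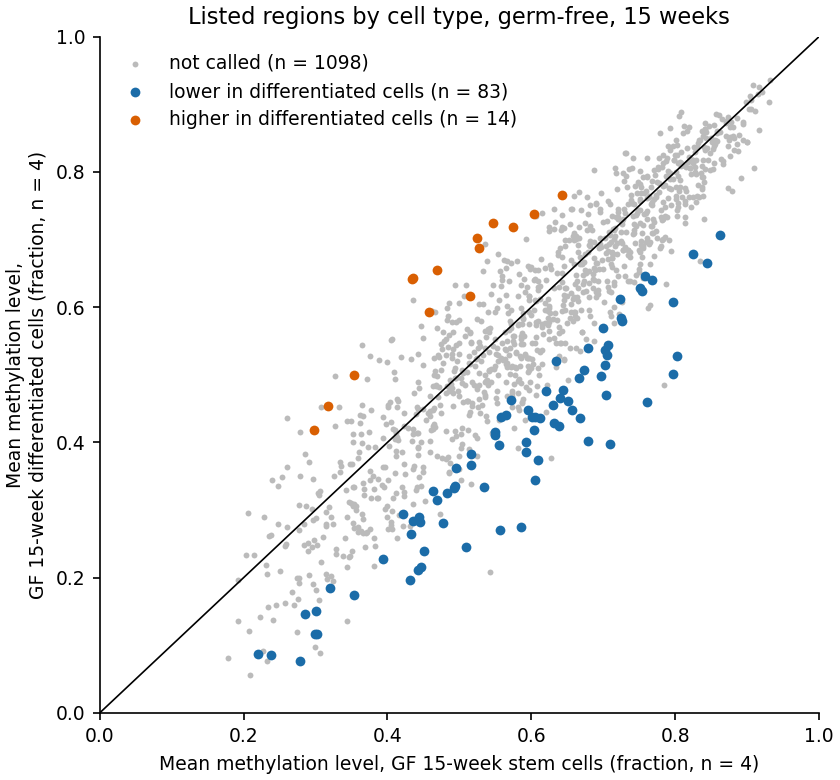
Mean methylation level of each of the 1195 regions in GF 15-week differentiated cells (y axis, fraction, n = 4) against GF 15-week stem cells (x axis, fraction, n = 4). The 83 regions called lower lie below the line of equal levels and the 14 called higher above it.

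Single libraries moved these counts. The lower count was 41 without differentiated sample 1, 54 without differentiated sample 2, 41 without differentiated sample 3, 52 without stem sample 1 and 54 without stem sample 4. The higher count was 4 without differentiated sample 1, 9 without differentiated sample 2, 2 without differentiated sample 3 and 6 without stem sample 4. The call held without each of the 8 samples in turn in 28 of the 97 regions, 27 lower and 1 higher. Among the regions described below these are Extl2, B3galt5, Igf1r, Chrm4, Sstr2 with Slc39a11, Adgra3, Ablim1, Aacs, Sqle, Aopep, Cacng2, Grhl2, the first Gm20388 region, Apbb2, the regions near St6galnac1 and Mir148a, and 2 regions of a chromosome 15 group. Direction did not turn in any of the 97 under any alternative that was run. In the 73 lower and 11 higher regions without overlap no subset of these samples could turn it. The 97 were also called on these same values, so the constant direction is no separate support.

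The named regions are given here by the roles of their genes, an order made after the calls and not a test of any role. Genes of like roles were also called higher, among them Nus1 of glycosylation, the receptors Unc5b and Ptprt, the lipid enzyme Lpin2 and the actin bundler Pls1. Extl2 encodes a glycosyltransferase of the heparan sulfate pathway, and the region in it (chr3:116027260-116027470) had levels of 0.381, 0.364, 0.329 and 0.518 in differentiated samples 1 to 4, against 0.686, 0.706, 0.653 and 0.794 in stem samples 1 to 4. Its difference was -0.312 ± 0.0535 (SE, limma, adjusted p = 0.00175), the largest of the 97, and every differentiated sample lay below every stem sample. B3galt5, which adds galactose to form type 1 glycan chains, had 0.133, 0.228, 0.188 and 0.236 in differentiated cells, against 0.479, 0.427, 0.40 and 0.421 in stem cells (chr16:96282769-96284568). The lowest stem sample was well above the highest differentiated one, and the difference was -0.235 ± 0.0326 (adjusted p = 0.000339). Golm1, a membrane protein of the Golgi, had 2 called regions, both in distal enhancer-like elements. At chr13:59670985-59671726 the levels were 0.411, 0.404, 0.271 and 0.459 in differentiated cells and 0.658, 0.552, 0.510 and 0.652 in stem cells (difference -0.207 ± 0.0476, adjusted p = 0.0140). At chr13:59655823-59656421 they were 0.577, 0.601, 0.40 and 0.479 in differentiated cells and 0.658, 0.611, 0.768 and 0.771 in stem cells (difference -0.188 ± 0.0486, adjusted p = 0.0268). The groups nearly touched at the second region and were further apart at the first. At the second the difference was -0.046 in the Co samples and -0.330 in the GFp samples, so its size rested mainly on the GFp samples.

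Igf1r, the receptor of insulin-like growth factor 1, had closely spaced levels: 0.236, 0.263, 0.243 and 0.238 in differentiated cells, against 0.481, 0.501, 0.564 and 0.493 in stem cells. The region (chr7:67958014-67958528) holds 22 CpGs in an element of the DNase-H3K4me3 class, and the difference was -0.265 ± 0.0409 (SE, limma, adjusted p = 0.000849). The M4 muscarinic acetylcholine receptor gene Chrm4 (chr2:91928335-91928434) had 0.381, 0.446, 0.556 and 0.455 in differentiated cells and 0.636, 0.694, 0.796 and 0.920 in stem cells, a difference of -0.302 ± 0.0625 (adjusted p = 0.00699). No differentiated sample reached the lowest stem sample there, although the stem samples were spread widely. Adgra3, an adhesion G-protein-coupled receptor, had 0.516, 0.549, 0.557 and 0.486 in differentiated cells, against 0.763, 0.732, 0.845 and 0.870 in stem cells (chr5:50036881-50037060; difference -0.276 ± 0.0509, adjusted p = 0.00286). A region annotated to Sstr2, a somatostatin receptor, and Slc39a11, a zinc transporter, lies within Slc39a11 (chr11:113625581-113625848). It had 0.229, 0.276, 0.185 and 0.172 in differentiated cells and 0.423, 0.395, 0.540 and 0.430 in stem cells, and the difference was -0.231 ± 0.0452 (adjusted p = 0.00447). Both of these regions also kept their groups apart. Downstream of receptors, Itpr1, a calcium release channel opened by inositol trisphosphate, differed by -0.190 ± 0.0471 (adjusted p = 0.0217), with means of 0.461 ± 0.0472 in differentiated cells and 0.651 ± 0.0630 in stem cells (SD, n = 4 each). Gng7, a G-protein gamma subunit, averaged 0.665 ± 0.105 in differentiated cells and 0.844 ± 0.0524 in stem cells, without overlap (adjusted p = 0.0268).

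Ablim1, which binds actin filaments, had 0.435, 0.431, 0.356 and 0.385 in differentiated cells, against 0.705, 0.50, 0.780 and 0.730 in stem cells (chr19:57092455-57092754; difference -0.277 ± 0.0496, SE, limma, adjusted p = 0.00237). Stem sample 2 was the lowest of its group and still lay above every differentiated sample. Cep85, a centrosome protein, had 0.380, 0.335, 0.192 and 0.192 in differentiated cells and 0.592, 0.429, 0.758 and 0.566 in stem cells (chr4:134160313-134160390; difference -0.311 ± 0.0902, adjusted p = 0.0402). Its difference was -0.153 in the Co samples and -0.470 in the GFp samples, so the size rested mainly on the GFp samples. Ezr encodes ezrin, which ties actin to the membrane of microvilli, and averaged 0.520 ± 0.0271 in differentiated cells and 0.634 ± 0.0442 in stem cells over 18 CpGs (adjusted p = 0.0329).

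Aacs, which makes acetoacetyl-CoA from the ketone body acetoacetate for lipid synthesis, had 0.349, 0.467, 0.451 and 0.479 in differentiated cells, against 0.663, 0.647, 0.697 and 0.663 in stem cells (chr5:125477640-125478340; difference -0.231 ± 0.0326, SE, limma, adjusted p = 0.000339). Sqle, squalene epoxidase of the cholesterol pathway, had low levels throughout: 0.166, 0.137, 0.181 and 0.214 in differentiated cells and 0.276, 0.311, 0.433 and 0.395 in stem cells (chr15:59316565-59317153; difference -0.179 ± 0.0343, adjusted p = 0.00404). In both genes the groups stood apart. Aopep, an aminopeptidase, had 0.0825, 0.124, 0.0980 and 0.161 in differentiated cells and 0.362, 0.262, 0.279 and 0.297 in stem cells (chr13:63279339-63279723; difference -0.184 ± 0.0307, adjusted p = 0.00170), and it was the only called one of 8 listed Aopep regions. Cbr3, a carbonyl reductase, had 2 called regions in proximal enhancer-like elements close to each other. The first (chr16:93683984-93684196) averaged 0.0869 ± 0.0190 in differentiated cells and 0.220 ± 0.0622 in stem cells (adjusted p = 0.0366). The second (chr16:93684252-93684940) averaged 0.438 ± 0.0921 in differentiated cells and 0.606 ± 0.0683 in stem cells (adjusted p = 0.0268), with an overlap of the groups. Hk1, a hexokinase, and Gsr, glutathione reductase, were called lower by -0.147 and -0.120.

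Other genes of the 20 largest lower regions without overlap have varied roles. Ola1, a translation-associated ATPase, averaged 0.335 ± 0.0674 in differentiated cells and 0.534 ± 0.0402 in stem cells. Cacng2, an auxiliary subunit of glutamate receptors, averaged 0.239 ± 0.0478 in differentiated cells and 0.451 ± 0.0790 in stem cells. Grxcr2, known from hair-cell bundles of the inner ear, averaged 0.429 ± 0.0587 in differentiated cells and 0.631 ± 0.135 in stem cells. Their adjusted p values were 0.0268, 0.00237 and 0.0463 in that order. Gm20388, a predicted gene, had 2 called regions on chromosome 8. The first (chr8:120980964-120981132) had 0.361, 0.377, 0.475 and 0.391 in differentiated cells and 0.532, 0.553, 0.643 and 0.642 in stem cells (difference -0.192 ± 0.0405, adjusted p = 0.00741), and RefSeq has no gene at that place. The second (chr8:121753384-121753505) is also annotated to Jph3 and had 0.362, 0.445, 0.327 and 0.364 in differentiated cells and 0.412, 0.539, 0.713 and 0.776 in stem cells (difference -0.236 ± 0.0614, adjusted p = 0.0268), with stem sample 1 inside the differentiated range. At this second region the difference was -0.0717 in the Co samples and -0.399 in the GFp samples. The other called lower regions with a gene differed by -0.233 to -0.111. They lie at Kif21a, Lnx2, Epsti1, Dtnbp1, Mfsd6, Etnk1, Tbc1d30, Mink1, Arel1, Cenpv, Rufy3, Kcnj4, Dock5, Zbtb8a, Ptcd2, Rasa3, Hsd17b11, Ttc7, BC004004, Kcnn4, Baz2b, Dcps, Eno4 and Plg with Slc22a3. Regions at Grhl2, Duoxa2, Pla2g5 and Dand5 with Gadd45gip1 were called lower too and are described further below.

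The 14 regions called higher include 10 with a gene. Apbb2, an adaptor that binds the amyloid precursor protein, had 0.674, 0.621, 0.727 and 0.550 in differentiated cells, against 0.533, 0.322, 0.425 and 0.464 in stem cells (chr5:66545839-66546334; difference 0.207 ± 0.0421, SE, limma, adjusted p = 0.00632). It is the only higher region whose call held without each of the 8 samples, and with the 8 GF 15-week samples fitted alone, 0 of the 14 higher regions were called. Unc5b, a netrin receptor, had 0.766, 0.591, 0.699 and 0.561 in differentiated cells and 0.436, 0.477, 0.520 and 0.443 in stem cells (chr10:60799716-60800081; difference 0.185 ± 0.0494, adjusted p = 0.0291). Pde4b, which breaks down cyclic AMP, had 0.769, 0.691, 0.640 and 0.712 in differentiated cells and 0.418, 0.644, 0.527 and 0.508 in stem cells (chr4:102507450-102508067; difference 0.179 ± 0.0411, adjusted p = 0.0140). Groups did not overlap at Apbb2 and Unc5b, and at Pde4b the lowest differentiated sample lay just below the highest stem sample. Lpin2, a phosphatidate phosphatase of glycerolipid synthesis, averaged 0.687 ± 0.0327 in differentiated cells and 0.527 ± 0.0681 in stem cells (adjusted p = 0.0366). Pls1, which bundles actin in the microvilli of the brush border, averaged 0.592 ± 0.0532 in differentiated cells and 0.458 ± 0.0421 in stem cells over 20 CpGs (chr9:95814046-95815333; adjusted p = 0.0268), so it moved opposite to the other microvillus gene Ezr. Nus1, a subunit of the enzyme that makes dolichol for glycosylation, differed by 0.145 ± 0.0369 and Ptprt, a receptor tyrosine phosphatase, by 0.144 ± 0.0393. Lrrc1, a scaffold protein related to Scribble, differed by 0.135 ± 0.0356 and the predicted gene Gm12216 by 0.123 ± 0.0331. At Nus1 the lowest differentiated sample, sample 1, lay below the highest stem sample, which was also sample 1.

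Prom1, which encodes the stem cell surface protein CD133, was the 1 stem cell marker called in either direction. Its region (chr5:44097162-44097656) had 0.761, 0.684, 0.714 and 0.737 in differentiated cells, against 0.359, 0.486, 0.673 and 0.669 in stem cells, and the difference was 0.177 ± 0.0527 (SE, limma, adjusted p = 0.0443). The differentiated samples agreed closely while the stem samples split by identifier style, so that the difference was 0.30 in the Co samples and 0.0546 in the GFp samples. The list of intestinal stem cell markers has 29 genes, of which 4 have a listed region, 5 regions in all. Of these 1 was called higher and 0 lower, beside 1.17% and 6.95% of all regions, and a single call is no result about the list. The median difference was 0.103, against -0.0268 over all 1195 regions. Cd44, a hyaluronan receptor and Wnt target, had 2 of the 5. At chr2:102895771-102897270 it averaged 0.746 ± 0.0554 in differentiated cells and 0.631 ± 0.0429 in stem cells (adjusted p = 0.0689, and 0.0410 without differentiated sample 4, the only alternative that called it). At chr2:102828044-102829044 it averaged 0.364 ± 0.0294 in differentiated cells and 0.261 ± 0.0413 in stem cells (adjusted p = 0.159). The groups did not overlap at the second Cd44 region, and at the first differentiated sample 4 lay below stem sample 1.

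**Figure D2:**
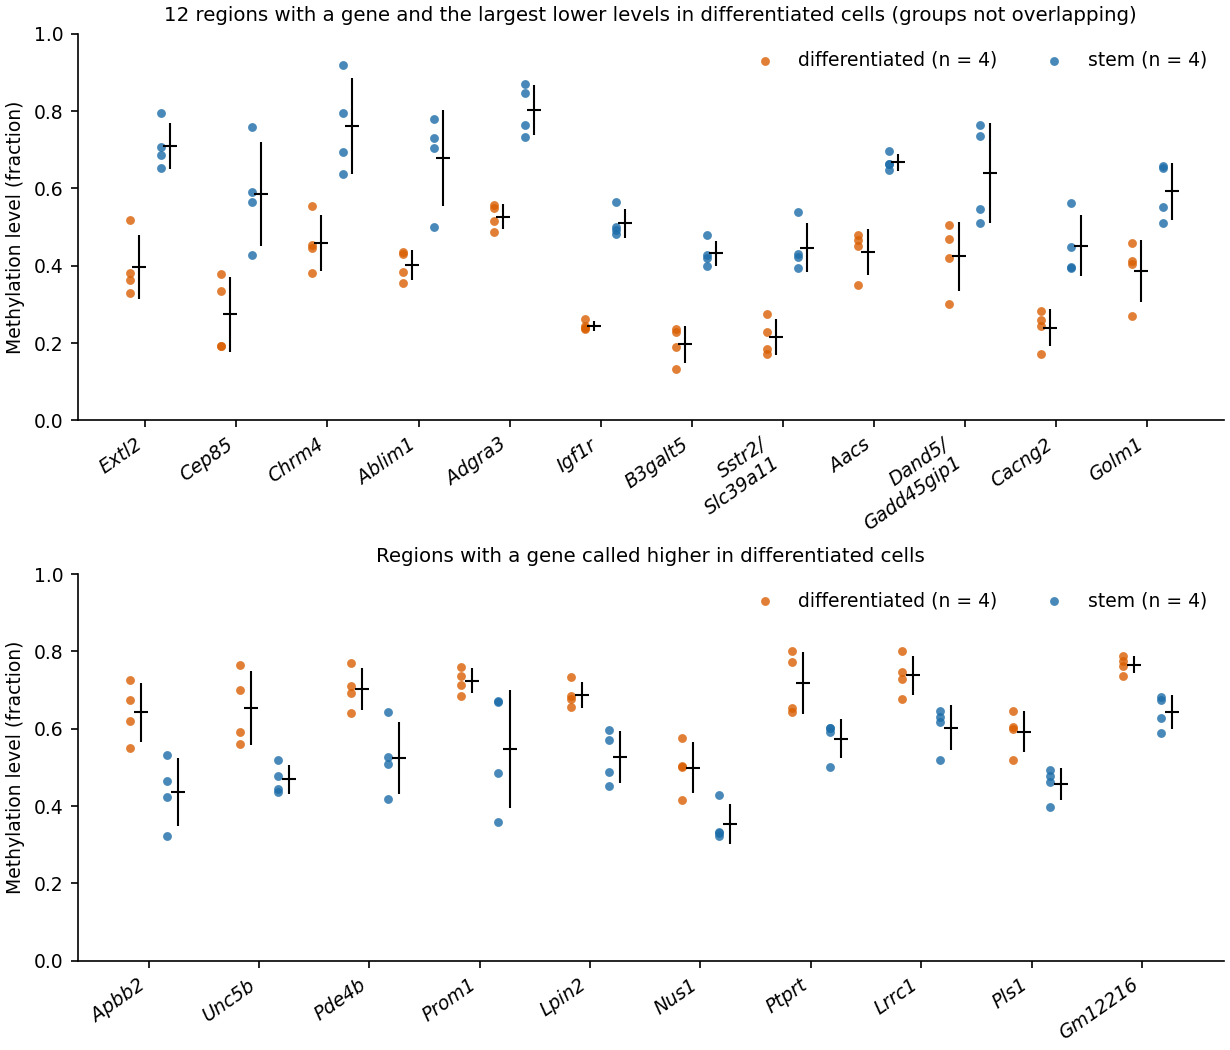
Methylation level (fraction) of each GF 15-week differentiated sample (left, orange) and stem sample (right, blue), with the mean and SD (n = 4 each), at the 12 regions with a gene and the largest lower levels among those without overlap (top) and at the 10 regions with a gene called higher (bottom). In the top panel the orange points lie below the blue ones at each gene, and at Prom1 in the bottom panel the blue points run from 0.359 to 0.673.

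The lists of differentiated cell types held few regions. The goblet cell and mucus list had 5 regions at 4 genes with 0 called, a median of -0.110, and differences below 0 in 4 regions and above 0 in 1, at Galnt12 (0.0574 ± 0.0431, SE, limma, adjusted p = 0.441). Muc1, a membrane mucin, had 0.507, 0.417, 0.389 and 0.419 in differentiated cells and 0.590, 0.574, 0.557 and 0.642 in stem cells (chr3:89231903-89232129; difference -0.158 ± 0.0509, SE, limma, adjusted p = 0.0574). The groups did not overlap at Muc1, but the value missed the threshold. At the 2 regions of Muc13, another membrane mucin, the differences were -0.120 ± 0.0511 and -0.110 ± 0.0482 (adjusted p = 0.147 and 0.155). The absorptive colonocyte list had 1 region, at Ceacam1, with 0 called. The enteroendocrine, tuft and immune cell lists had none, and the stromal and endothelial list had 3 regions, at Pecam1, Vwf and Acta2, with 0 called, so an admixture of other cells could not be looked at here.

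Of the lists for regulation, 4 intestinal transcription factors had 1 region each, 1 called lower and 0 higher, beside 6.95% and 1.17% of all regions. Grhl2, an epithelial transcription factor that acts on junction genes, was called lower with 0.433, 0.481, 0.426 and 0.401 in differentiated cells and 0.607, 0.632, 0.577 and 0.633 in stem cells (chr15:37249123-37249857; difference -0.176 ± 0.0321, SE, limma, adjusted p = 0.00261). Klf6 differed by -0.139 ± 0.0504 (adjusted p = 0.0889, and 0.0366 without stem sample 2, the only alternative that called it), and Prdm1 and Tead1 were not called. Wnt signalling had 4 regions with 0 called. Among them Tcf7l2, the main transcription factor of the pathway in the intestine, had 0.0526, 0.0969, 0.0645 and 0.0943 in differentiated cells and 0.419, 0.0984, 0.0650 and 0.349 in stem cells (chr19:55863493-55863819; adjusted p = 0.0893, but 0.0333 without stem sample 2 and 0.0223 without stem sample 3). At that region stem samples 1 and 4 were high, and stem samples 2 and 3 lay at the level of the differentiated cells. Leaving out stem sample 2 or 3 thus takes away a sample without the difference, and no other alternative called the region. Notch signalling, BMP signalling, the cell cycle and the DNA methylation machinery had 1 region each with 0 called.

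Antigen presentation and epithelial immune effectors had 18 regions at 12 genes, of which 2 were called lower and 0 higher, beside 6.95% and 1.17% of all regions, with a median of -0.0191. A count of this size is near that background and is no result about the list. Duoxa2, the maturation factor of the hydrogen peroxide-producing oxidase DUOX2, had 0.618, 0.60, 0.650 and 0.647 in differentiated cells and 0.707, 0.761, 0.808 and 0.732 in stem cells over 21 CpGs (chr2:122299501-122300680; difference -0.123 ± 0.0361, SE, limma, adjusted p = 0.0416). Pla2g5, a secreted phospholipase A2, had 0.472, 0.366, 0.333 and 0.415 in differentiated cells and 0.496, 0.559, 0.565 and 0.599 in stem cells at the called 1 of its 4 regions (chr4:138826773-138826996; difference -0.158 ± 0.0459, adjusted p = 0.0402). In both genes the differentiated samples lay below the stem samples. The interferon response list had 12 regions, microbial sensing and NF-kB 4, tight junctions and barrier 8, protein glycosylation enzymes 4, and the fetal and regenerative list 5, each with 0 called in either direction. The 4 regions of protein glycosylation enzymes split into 2 below and 2 above 0, with a median of -0.0146. Lipid and bile acid metabolism had 11 regions, 1 called lower (Pla2g5) and 1 higher (Lpin2), beside 6.95% and 1.17% of all regions. Of the 11 regions 5 were below and 6 above 0, with a median of 0.0073. A list without calls is not shown to be free of differences at 4 samples a group.

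The chromosome 15 group was chosen after its values were seen. Its 5 regions span 17.9 kb, hold 62 CpGs, all lie in distal enhancer-like elements, and end 24.4 to 41.9 kb upstream of Mirlet7c-2, with Mirlet7b about 0.7 kb further on the same strand. The nearest RefSeq gene is Lncppara for 3 of them and D130051D11Rik for the other two. At chr15:85678491-85678827 the levels were 0.227, 0.256, 0.358 and 0.244 in differentiated cells and 0.644, 0.537, 0.524 and 0.519 in stem cells, and the difference was -0.285 ± 0.0364 (SE, limma, adjusted p = 0.000231). At chr15:85665630-85666114 they were 0.160, 0.265, 0.203 and 0.217 in differentiated cells and 0.630, 0.440, 0.328 and 0.372 in stem cells (difference -0.231 ± 0.0510, adjusted p = 0.0103). At chr15:85681402-85682236 they were 0.210, 0.302, 0.30 and 0.312 in differentiated cells and 0.625, 0.433, 0.482 and 0.371 in stem cells (difference -0.197 ± 0.0464, adjusted p = 0.0160). In each of these 3 the groups stood apart and stem sample 1 was the highest of the 8. The other two, at chr15:85679995-85680753 and chr15:85664347-85664657, differed by -0.118 ± 0.0435 and -0.109 ± 0.0532 and were not called (adjusted p = 0.0933 and 0.205). Over the 5 regions GF 15-week differentiated samples averaged 0.230 ± 0.030 and stem samples 0.418 ± 0.063 (SD, n = 4 each). At 3 weeks GF differentiated cells averaged 0.683 and GF stem cells 0.728, and at 15 weeks SPF differentiated cells averaged 0.0938 and SPF stem cells 0.171 (2 samples each). Every 3-week sample average over the 5 regions was above every 15-week one.

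**Figure D3:**
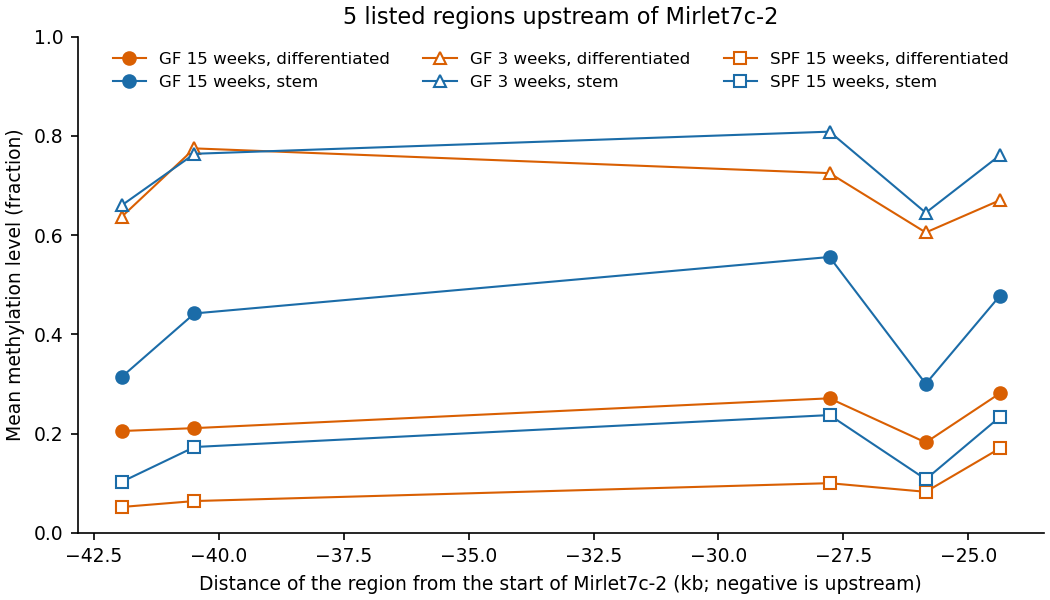
Mean methylation level (fraction) of the 5 regions against their distance from the start of Mirlet7c-2 in kb, in differentiated (orange) and stem cells (blue) of GF mice at 15 weeks (n = 4 each), GF mice at 3 weeks and SPF mice at 15 weeks (n = 2 each). GF 15-week differentiated cells lie between 0.182 and 0.281 and GF 15-week stem cells between 0.30 and 0.556.

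Other called regions without a gene in the deposited annotation were likewise picked after seeing their values. At chr11:116778571-116778883, 3064 bp from St6galnac1, which makes the sialyl-Tn glycan of mucins, the levels were 0.437, 0.505, 0.646 and 0.418 in differentiated cells and 0.817, 0.740, 0.838 and 0.792 in stem cells (difference -0.295 ± 0.0480, SE, limma, adjusted p = 0.00139). This region and the first of the chromosome 15 group are the 2 whose call held under every alternative. The region near Mir148a, at chr6:51284731-51285030 and 14.8 kb from it, had 0.310, 0.323, 0.375 and 0.331 in differentiated cells and 0.571, 0.516, 0.460 and 0.429 in stem cells (difference -0.159 ± 0.0331, adjusted p = 0.00718). Its groups did not overlap, and its call also held without each of the 8 samples. Aebp2, a partner of the Polycomb repressive complex 2, has 2 called regions 10368 and 7095 bp away. They averaged 0.0772 ± 0.0332 and 0.0849 ± 0.0408 in differentiated cells, against 0.278 ± 0.0773 and 0.237 ± 0.0778 in stem cells (adjusted p = 0.0252 and 0.0298). At the A630001O12Rik promoter window the called region had 0.161, 0.195, 0.0532 and 0.176 in differentiated cells and 0.30, 0.304, 0.375 and 0.163 in stem cells (difference -0.139 ± 0.0425, adjusted p = 0.0473), with an overlap through stem sample 4. Among the 4 higher regions without a gene, one in the noncoding gene Lncpint (chr6:31145596-31145988) averaged 0.642 ± 0.157 in differentiated cells and 0.433 ± 0.0339 in stem cells, with an overlap through differentiated sample 2 (adjusted p = 0.0310).

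By annotated element, 26 of the 83 lower regions lie in distal enhancer-like elements of the deposited annotation, 5 in proximal enhancer-like, 2 in DNase-H3K4me3 and 1 in promoter-like elements, and 49 in none, whereas of all regions 421, 116, 21, 24 and 607 do. The share called lower was 6.18% in distal enhancer-like elements and 8.07% outside any element. A gene is given for 53 of the 83 lower regions (63.9%), 10 of the 14 higher (71.4%) and 755 of the 1195 (63.2%). The median CpG number was 10 in the lower, the higher and all regions.

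The same regions were then read in the 12 samples that do not enter the comparison. Of the 83 lower regions the mean of differentiated cells was below that of stem cells in 73 at SPF 15 weeks (678 of all 1195 regions, 56.7%), in 63 at GF 3 weeks (602, 50.4%) and in 52 at SPF 3 weeks (551, 46.1%). Their median differences were -0.0710, -0.0398 and -0.0267, against -0.167 at GF 15 weeks. Of the 14 higher regions the mean was above that of stem cells in 13 at SPF 15 weeks (43.3% of all), 12 at GF 3 weeks (49.5%) and 11 at SPF 3 weeks (53.9%), with medians of 0.0556, 0.0596 and 0.0810. In all 3 other pairs of groups differentiated cells were lower in 38 of the 83 lower regions (45.8%), against 219 of all 1195 (18.3%). They were higher in all 3 in 9 of the 14 higher regions (64.3%), against 201 of all (16.8%). By limma 0 regions were called lower and 2 higher at GF 3 weeks (0% and 0.167%). At SPF 15 weeks and at SPF 3 weeks limma called 0 in either direction. At an unadjusted p under 0.05 there were 118 regions at GF 3 weeks (9.87%), 131 at SPF 15 weeks (11%) and 63 at SPF 3 weeks (5.27%), with 2 samples a group.

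An unadjusted p under 0.05 in the same direction in at least 2 of the 3 other pairs of groups was found in 8 of the 83 lower regions and 2 of the 14 higher ones, beside 15 and 17 of all 1195. Grhl2 differed by -0.108 at GF 3 weeks and -0.135 at SPF 15 weeks, and Aacs by -0.187 and -0.118 in that order (unadjusted p of 0.0282, 0.00744, 0.00066 and 0.0187, limma). B3galt5 differed by -0.153 at SPF 15 weeks and -0.118 at SPF 3 weeks, but by 0.0251 at GF 3 weeks, and the GF 15-week minus GF 3-week contrast of -0.260 had an adjusted p of 0.0537. At SPF 3 weeks Grhl2 and Aacs differed by -0.0277 and 0.0187. Mink1, a kinase of the Misshapen family, was lower in differentiated cells in all 4 pairs of groups, by -0.166 at GF 15 weeks, -0.119 at GF 3 weeks, -0.144 at SPF 15 weeks and -0.120 at SPF 3 weeks. A higher region within the noncoding gene A330001L22Rik, 4110 bp from Zfp503 (chr14:21993711-21994122), was higher in all 4, by 0.136, 0.119, 0.120 and 0.197 in the same order. The spread behind these p-values is shared with the GF 15-week samples through the fit, while the differences are not.

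**Figure D4:**
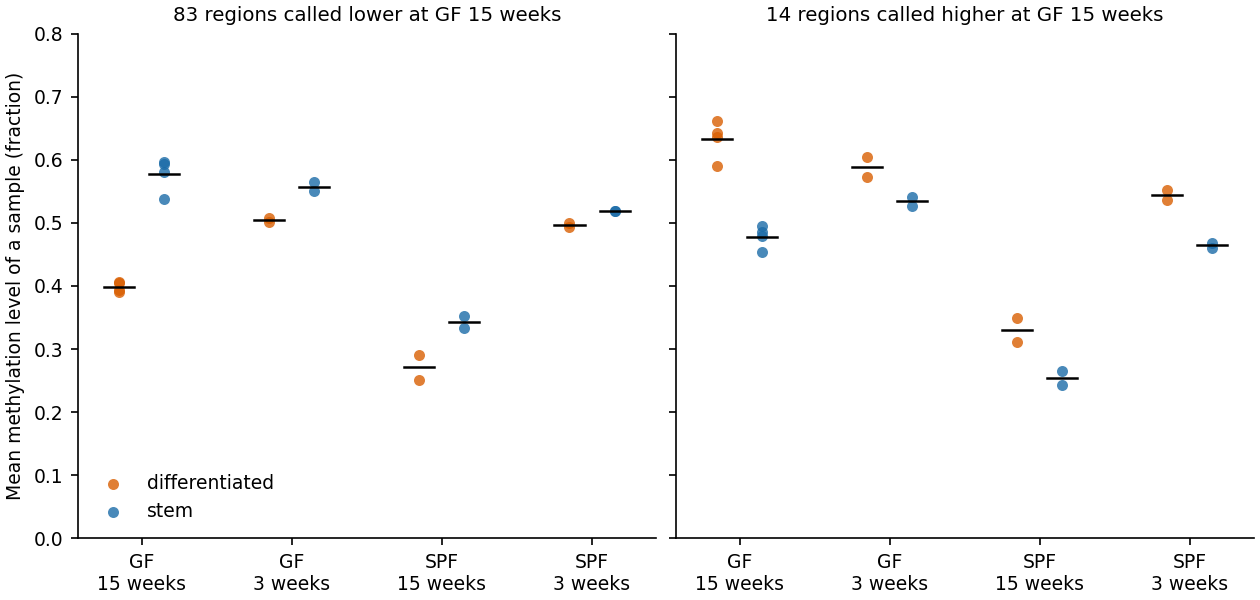
Mean methylation level (fraction) of each sample over the 83 regions called lower (left) and the 14 called higher (right) at GF 15 weeks, for differentiated cells (orange, left of each pair) and stem cells (blue). Lines are group means, with 4 samples a group at GF 15 weeks and 2 elsewhere; the GF 15-week gap was used for the choice of regions.

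Whether the difference depends on age or microbiota was examined by contrasts of differences. All GF 3-week identifiers begin with GFp and all SPF 15-week identifiers end in Co, while the GF 15-week groups hold both styles. Identifier style is therefore mixed with age and with microbiota in these contrasts, and its part was not tested. The GF 15-week difference minus the GF 3-week difference had 2 regions called lower (0.167%) and 0 called higher (110 at an unadjusted p under 0.05, 9.21%). Lower is also the direction that a choice of regions by high GF 15-week stem levels can favour, here and in the contrast with SPF. One is the promoter-like region at Dand5, a secreted antagonist of Nodal and BMP signals, and Gadd45gip1, a protein of mitochondrial ribosomes (chr8:84831602-84831823). It had 0.506, 0.302, 0.469 and 0.420 in differentiated cells and 0.511, 0.545, 0.736 and 0.764 in stem cells at 15 weeks, whereas the 3-week GF samples had 0.681 and 0.670 in differentiated cells and 0.444 and 0.388 in stem cells. The difference thus had opposite signs at the 2 ages, and the contrast was -0.474 ± 0.094 (SE, limma, adjusted p = 0.0424). This region was also among those called lower at GF 15 weeks, by -0.215, with the groups just apart. The other is at Tmsb10, thymosin beta 10, which binds actin monomers (chr6:72957416-72957523). It had 0.165, 0.0644, 0.343 and 0.264 in differentiated cells and 0.169, 0.241, 0.382 and 0.211 in stem cells at 15 weeks, and 0.518 and 0.722 in differentiated cells and 0.161 and 0.180 in stem cells at 3 weeks, a contrast of -0.491 ± 0.098 (adjusted p = 0.0424). At Tmsb10 the groups overlapped at 15 weeks, and the contrast came from the high 3-week differentiated samples. Without differentiated sample 1, 2 or 4 or stem sample 3 or 4, 0 regions were called, 1 without stem sample 2 and 4 without differentiated sample 3. For the GF minus the SPF difference at 15 weeks limma called 0 regions (66 at an unadjusted p under 0.05, 5.52%), so no region was shown to differ between cells in a way that depends on the microbiota.

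The 2 identifier styles gave the comparison separately within the GF 15-week groups, with 2 differentiated and 2 stem samples each. In a fit that keeps the styles apart, the Co samples had 15 regions called lower (1.26%) and 3 higher (0.251%), and all 15 and all 3 had the same direction in the GFp samples (68.4% of all regions were lower there and 31.6% higher). The GFp samples had 35 called lower (2.93%) and 5 higher (0.418%), of which 33 and 5 had the same direction in the Co samples (58.3% and 41.7% of all). Of the 15 lower Co regions 12 had an unadjusted p under 0.05 in the GFp samples, and of the 35 lower GFp regions 18 in the Co samples. Neither set of higher regions had any. Across the 1195 regions, which share their samples, the Co and GFp differences had a Pearson's r of 0.431, and 0 regions were called as different between the styles (90 at an unadjusted p under 0.05, 7.53%, limma).

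**Figure D5:**
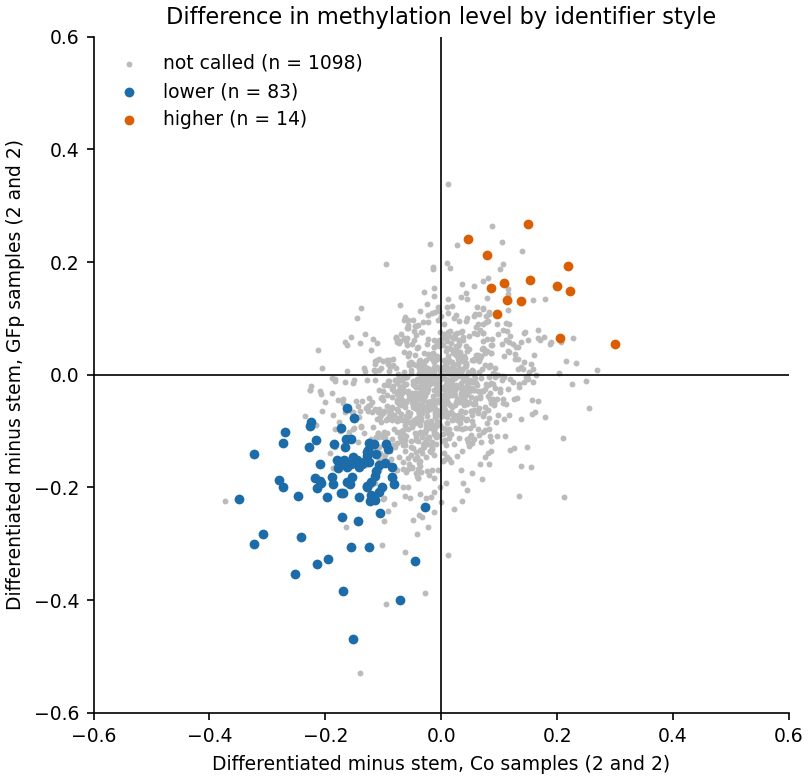
Difference in methylation level, differentiated minus stem, of each of the 1195 regions in the GFp samples (y axis) and in the Co samples (x axis), 2 differentiated and 2 stem samples each. The 83 called lower regions lie in the lower left and the 14 called higher in the upper right quadrant, a place that the choice from both styles together favours.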

How the data were processed

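Per the labels' protocols, whole-genome bisulfite libraries came from the xGen Methyl-Seq kit, with conversion by EZ DNA Methylation-Direct. The submitters' processing notes name BSMAP 2.90 and mm10. No source used here gives the read filters, the region caller or the test behind the listed regions. The values the authors deposited are methylation fractions with no coverage, so noise from depth cannot be separated from spread between samples. The authors' deposited table also gives gene names and candidate regulatory elements. Of its 666 gene symbols 657 matched a RefSeq symbol or synonym; RefSeq gene spans were used, so exons and introns were not told apart.

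The fractions of all 20 samples in 8 groups were fitted with limma 3.58.1 (R 4.3.3), with Benjamini-Hochberg adjustment over 1195 regions, so that groups of 2 share the spread of the others. The script was tested on simulated data. No 2 samples of a group were duplicates: pairs were apart by 0.0547 to 0.0942 on average and had 3 or fewer equal values. Named genes are the 20 largest lower regions without overlap, called higher regions with a gene, called regions of 20 gene lists with at most 3 uncalled ones a list, genes with 2 or more called regions, and called regions of the contrasts of differences. Regions without a gene were added after their values were seen. Members and lists were chosen with earlier results of these data known. Alternatives were a logit scale, a trended robust variance, the 8 samples alone, blocks by replicate number, single identifier styles, at least 20 CpGs, a median, leaving out each sample and, added after seeing the data, single sexes.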

Additional observations from a re-analysis of the deposited data

Results flagged for a closer look

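In groups of 4, 5 values stood apart by Dixon's test at 95%, among 84 groups looked at, where chance alone gives about 1 in 20. They are the highest GF 15-week stem sample at chr15:85678491-85678827 upstream of Mirlet7c-2 (0.644), at Nus1 (0.430) and at Grxcr2 (0.832), the lowest stem sample at Ptprt (0.500), and the lowest differentiated sample at chr15:85681402-85682236 (0.210). The chromosome 15 values and the one at Nus1 belong to sample 1 of their groups, the one at Ptprt to stem sample 3 and the one at Grxcr2 to stem sample 4.

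A limma contrast of differences called 2 regions between the GF ages, where identifier style is mixed with age. It was -0.474 at Dand5 and Gadd45gip1 and -0.491 at Tmsb10, each with an adjusted p of 0.0424. At Dand5 and Gadd45gip1 the adjusted p ran from 0.0192 to 0.0859 over the alternatives, and at Tmsb10 from 0.0181 to 0.171.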

How the results depend on the processing

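None of the 97 called regions turned direction under the alternatives, which most could not do because their groups did not overlap, and 2 kept their call under all of them. Depth is unknown, so its part in these values was not tested. Against 83 lower and 14 higher regions, the counts were 49 and 6 on a logit scale, 23 and 0 with the 8 samples alone, 17 and 3 with Co samples only, 30 and 5 with GFp samples only, 33 and 8 with male samples only and 3 and 0 with female samples only; the last 4 rest on 2 samples a group. With a trended robust variance they were 79 and 13. Leaving out 1 sample at a time gave 41 to 110 lower and 2 to 18 higher regions. The count of regions called in the age contrast of GF cells, 2, was 0 on a logit scale, 3 with a trended robust variance and 0 to 4 when 1 sample was left out. For the contrast with SPF it was 0 throughout (55 to 86 at an unadjusted p under 0.05, limma).

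The list is read as one chosen by high levels in these same stem samples. The p-values of its mean therefore do not measure a cell difference apart from that choice. The mean over regions was -0.0296 (exact two-sided permutation p = 0.0286, the smallest that 4 against 4 allows). It was -0.0144 over regions with at least 20 CpGs (exact p = 0.257), -0.0171 with Co and -0.0420 with GFp samples only (exact p = 0.333, the smallest for 2 against 2), and -0.0340 to -0.0263 without 1 sample (exact p = 0.0571, the smallest for 3 against 4).

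Same-numbered differentiated and stem samples had correlations of their deviations from the group means of 0.030, 0.20, 0.123 and -0.011. Those of samples with unlike numbers ran from -0.204 to 0.119. These values do not settle whether the samples are paired, and the main fit did not take the numbers as pairs. Samples 3 share an identifier across the cell types, as do samples 4, but samples 1 and 2 do not, and whether a shared identifier marks the same animals is not stated. With the replicate number as a block, limma called 59 lower and 8 higher regions with all 20 samples, 27 and 0 with the 8 samples alone, and 1 region for the age contrast. The mean difference of -0.0296 then had an exact sign-flip p of 0.125, the smallest for 4 pairs.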
